A study of Mus musculus with 24 samples.

Results

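The lysosomal genes described here are 42 genes for the hydrolases, membrane proteins, proton pump and transcription factors of the lysosome, chosen as a named list of gene symbols out of the 43430 gene IDs in the deposited table of counts. All 42 were found under 1 Ensembl ID each. All 42 passed the filter on low counts, which 13629 genes passed, and the least abundant of them, Smpd1, still had at least 398 counts in each library that was fitted. By role they are 6 subunits of the membrane ring V0 and 8 of the cytosolic part V1 of the vacuolar proton pump (V-ATPase), 2 accessory proteins of the pump, 7 lysosomal membrane proteins, 9 glycosidases, 7 lumenal genes for lipid and protein handling, and 3 factors of the MiT/TFE family.

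The series measured poly(A) RNA of alveolar macrophages, obtained by cell sorting of lungs from C57BL/6J animals, a standard inbred mouse strain, in 24 libraries from 6 groups. Young animals were 8 to 12 weeks old and old ones more than 18 months. Naive animals gave Siglec F-high cells only, and animals taken 28 days after asbestos, a mineral fibre that scars the lung, gave both Siglec F-high and Siglec F-low cells (F-high and F-low below). The groups are thus young naive F-high, old naive F-high, young asbestos F-high, old asbestos F-high, young asbestos F-low and old asbestos F-low, with 4 libraries each. The series text speaks of tissue-resident and monocyte-derived cells, whereas the labels name the sorts by Siglec F, and the names by Siglec F are used here. The labels do not say whether a library came from 1 mouse or from several, nor whether F-high and F-low libraries of the same number came from the same animals, so the p-values measure the spread between these libraries.

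Lysosomes are acidic organelles in which macrophages break down engulfed material, surfactant lipid and their own worn parts. The V-ATPase pumps protons into the lumen with energy from ATP, the hydrolases work at the resulting low pH, and membrane proteins such as LAMP1 and LAMP2 line the organelle. TFEB, TFE3 and MITF are related basic helix-loop-helix leucine zipper factors that bind E-box letters (CACGTG) in the promoters of many lysosomal genes, and nutrient signalling at the lysosome holds TFEB and TFE3 in the cytosol. In the lung, alveolar macrophages take up and degrade surfactant, so lysosomal lipid handling is a large part of their work.

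Promoter letters are shown first for the 4 genes that were called in the most comparisons (Psap, Lipa, Naglu and Smpd1) and for 2 genes whose promoters hold the letters of the E-box with their flanks (Atp6v1a, called in 3 comparisons, and Mcoln1). RefSeq's table on GRCm38.p6 held promoters for 35 of the 42 genes, each of 300 bases, of which the 250 before the start of the RefSeq transcript are printed 5′ to 3′ on the gene's strand. That start can differ from the GENCODE gene start given with the values below: for Naglu and Mcoln1 it lies downstream of it, and for Atp6v1a the whole window lies inside the GENCODE gene. The windows are chr10:60277378-60277627 (plus strand) for Psap, chr19:34527475-34527724 (minus strand) for Lipa, chr11:101069844-101070093 (plus strand) for Naglu, chr7:105554110-105554359 (plus strand) for Smpd1, chr16:44139260-44139509 (minus strand) for Atp6v1a and chr8:3500269-3500518 (plus strand) for Mcoln1. Capitals mark matches to CACGTG, TCACGTGA or GTCACGTG on either strand.
Psap: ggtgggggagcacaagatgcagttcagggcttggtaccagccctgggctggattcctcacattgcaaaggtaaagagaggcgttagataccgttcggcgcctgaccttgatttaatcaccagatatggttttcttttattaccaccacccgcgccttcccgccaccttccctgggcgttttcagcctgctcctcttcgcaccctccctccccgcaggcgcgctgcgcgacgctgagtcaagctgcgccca
Lipa: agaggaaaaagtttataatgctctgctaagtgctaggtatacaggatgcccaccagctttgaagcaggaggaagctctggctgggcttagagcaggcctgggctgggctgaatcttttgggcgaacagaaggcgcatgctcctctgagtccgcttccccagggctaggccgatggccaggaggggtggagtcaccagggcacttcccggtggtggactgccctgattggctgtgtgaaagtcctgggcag
Naglu: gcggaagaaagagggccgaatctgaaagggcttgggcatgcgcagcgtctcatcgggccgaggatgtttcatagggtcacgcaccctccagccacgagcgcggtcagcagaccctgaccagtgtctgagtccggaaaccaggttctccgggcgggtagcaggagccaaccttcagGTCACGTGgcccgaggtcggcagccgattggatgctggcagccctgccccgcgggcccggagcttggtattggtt
Smpd1: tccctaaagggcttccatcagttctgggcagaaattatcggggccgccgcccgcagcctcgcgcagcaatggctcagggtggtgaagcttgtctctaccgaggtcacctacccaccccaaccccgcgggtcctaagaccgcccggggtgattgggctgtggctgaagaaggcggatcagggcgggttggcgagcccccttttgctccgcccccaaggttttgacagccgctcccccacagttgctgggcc
Atp6v1a: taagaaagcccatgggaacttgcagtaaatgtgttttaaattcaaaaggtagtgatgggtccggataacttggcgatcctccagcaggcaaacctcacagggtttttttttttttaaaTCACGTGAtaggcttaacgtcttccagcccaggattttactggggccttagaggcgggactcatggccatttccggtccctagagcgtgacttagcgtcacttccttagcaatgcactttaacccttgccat
Mcoln1: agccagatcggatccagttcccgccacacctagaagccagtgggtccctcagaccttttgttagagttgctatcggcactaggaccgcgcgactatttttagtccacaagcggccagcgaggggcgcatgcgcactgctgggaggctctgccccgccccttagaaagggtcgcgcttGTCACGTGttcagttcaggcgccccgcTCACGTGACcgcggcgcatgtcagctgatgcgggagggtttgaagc

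The first matched base stood 75 bases before the RefSeq start in Naglu, 132 before it in Atp6v1a and 73 before it in Mcoln1, whose window held 17 matched bases in separate runs. No match was found in the windows of Psap, Lipa and Smpd1, which says only that these letters were not in them. CACGTG was in the promoters of 9 of the 35 genes (25.7%), namely Atp6v0b, Atp6v0d1, Atp6v0e, Atp6v1a, Lamp1, Mcoln1, Glb1, Naglu and Gaa, and in those of 8.09% of the 27025 genes in the table. TCACGTGA, which contains CACGTG, was in 4 of the 35 (11.4%) against 1.12% of all genes. For GTCACGTG, which overlaps both, the shares were 6 of 35 (17.1%) and 2.55%. These shares are a description of letters, and binding was not measured.

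Of the 24 libraries, 22 held 13423080 to 18124526 counts, and 2.36 to 3.91% of the counts fell on the 42 genes. Replicate 3 of the young asbestos F-high group (11889517 counts on 12528 genes with a count, against 17069 to 18820 elsewhere) and replicate 3 of the old asbestos F-high group (3894699 counts, 42.7% of them rRNA-related) stood apart. Their log2 CPM (counts scaled to library size) correlated with the rest of their groups at 0.876 and 0.917 across genes, against 0.986 to 0.992 in the 22, and 1.90 and 0.647% of their counts fell on the lysosomal genes. The tests below use the 22 libraries, with 3 in each asbestos F-high group and 4 in the others, and counts with all 24 stand beside them. Values are CPM scaled with TMM factors, log2 fold changes are ± SE, and a gene is called at an edgeR adjusted p under 0.05 over all 13629 genes. All 12 markers of resident alveolar macrophages were detected in every group, with the gene of the sort marker, Siglecf, at a mean of 482 to 566 CPM in F-high and of 280 (young) and 184 (old) CPM in F-low cells.

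Of the 7 comparisons, F-low against F-high cells of young mice after asbestos held the most calls. There 26 of the 42 lysosomal genes were higher in F-low cells and none was lower, led by Psap, the precursor of the saposins that help degrade sphingolipids, Naglu, a heparan sulphate glycosidase, and Npc2, a soluble cholesterol carrier. The rise spanned roles: 4 of 6 V0 subunits, 6 of 8 V1 subunits, both accessory proteins, 4 of 7 membrane proteins, 4 of 9 glycosidases and 6 of 7 lumenal lipid and protein genes rose, and none of the 3 MiT/TFE factors did. The median log2 fold change of the 42 was 0.31, with 39 positive, while over all genes tested the median was 0.00, 7.42% were called higher and 4.60% lower. Because bulk RNA was measured, a change in the share of a cell type and a change in RNA per cell cannot be told apart here.

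In old mice the same contrast gave 7 lysosomal genes higher and none lower: Psap (0.53 on the log2 scale), Naglu (0.43), Atp6v1a (0.41), Atp6v0a1 (0.36), Atp6v0c (0.33), Gaa (0.30) and Smpd1 (0.29). Their share has a background of 6.30% of all genes higher and 5.28% lower, and the median of the 42 was 0.14. With the replicate number as a block 33 were called in young and 13 in old mice, where 2440 and 1954 of all genes were called. Deviations of same-numbered libraries correlated at 0.316, 0.0844 and 0.236 in young and at 0.157, 0.189 and 0.206 in old mice. The labels do not tie the numbers to animals, so whether the sorts are paired is not known. Every fitted F-low library lay above every fitted F-high library for 34 of the 42 genes in young and 11 in old mice, where 12.9 and 11.5% of all genes did so. With all 24 libraries 6 and 2 of the 42 were called, against 4.99 and 4.30% of all genes in either direction, and the medians of the 42 were 0.27 in young and 0.26 in old mice, so that the lower old median of the 22 libraries was not seen there. Leaving out 1 library left 16 to 30 calls in young mice, fewest without young asbestos F-high replicate 4, and 2 to 10 in old mice, fewest without old asbestos F-high replicate 1 or 2. Over all genes that young fit called 986, against 1638 with 22 libraries. The old fits without replicate 1 or 2 called 1059 and 1024, against 1578.

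Markers of monocytes and monocyte-derived macrophages moved with this contrast. Their summed level over 14 genes was 1124 to 1369 CPM in the fitted young F-high and 2175 to 2381 in the young F-low libraries, and 1477 to 1700 and 2970 to 3730 CPM in the old. Of the 14, 9 (young) and 10 (old) were higher in F-low cells. Of the 12 resident markers 2 (young) and 1 (old) were higher and 5 and 6 lower, with Chil3 among the higher. The median log2 fold change of the 12 was -0.20 in young and -0.33 in old mice. Yet their summed level was higher in F-low cells. The sum was 27002 to 30926 CPM in the fitted young F-high and 39694 to 52037 in the young F-low libraries. In old mice it was 40262 to 45089 and 57053 to 72142 CPM. Such a sum follows its most abundant genes and does not show that the 12 rose as a set. In naive cells Chil3 alone averaged 12456 (young) and 13774 CPM (old), where the 12 summed to medians of 19156 and 21648. The part of these changes in the lysosomal result was not tested.

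Asbestos against naive, in F-high cells, gave 12 lysosomal genes higher in young and 8 in old mice, with none lower in either. Over all genes 3.48% were higher and 1.58% lower in young, and 3.16% higher and 0.969% lower in old mice. Naglu, Psap, Atp6v0a1, the membrane glycoprotein Cd68, the d2 pump subunit Atp6v0d2 and the beta-galactosidase gene Glb1 were called in both ages. The medians of the 42 were 0.17 and 0.20, with 41 and 39 positive, against 0.00 over all genes in each. For 18 and 26 of them the asbestos libraries did not overlap the naive ones, all above, where 9.24 and 9.58% of all genes lay entirely above. The asbestos F-high libraries enter this comparison and the sort contrast with opposite sign, so the 2 comparisons are not independent.

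The calls after asbestos rested on few libraries. With all 24 libraries 1 gene was called in young and none in old mice, against 1.90 and 0.780% of all genes. The medians of the 42 were then 0.21 and 0.10, with 35 and 31 positive. Without young asbestos F-high replicate 1 there were 2 calls in young mice, and without old asbestos F-high replicate 4 there were 2 in old mice. Over all genes these fits called 211 of 13986 and 223 of 13992. With 22 libraries 3.48% of all genes were higher and 1.58% lower in young mice, and 3.16 and 0.969% in old mice. Calls therefore fell over all genes too, and the loss was not particular to the lysosomal genes. Of other cell types, B cell markers were lower after asbestos for 5 (young) and 2 (old) of 8 genes, while the summed level of the 8 was 206 to 223 CPM in young naive against 193 to 199 in young asbestos libraries, and 183 to 223 against 190 to 205 in old ones. Monocyte-derived markers were higher for 4 and 3 of 14 and lower for 2 and 1. Resident markers were higher for 3 and 2 of 12 and lower for 1 and 0, with a median log2 fold change of -0.09 and 0.01. The summed level of the 12 was 18022 to 23880 CPM in young naive against 27002 to 30926 in fitted young asbestos libraries, and 19774 to 22454 against 40262 to 45089 in old ones. Their part in the lysosomal result was not tested.

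The number of calls with age differed between groups. In naive F-high cells 5 lysosomal genes were higher in old mice and none lower, with the acid lipase gene Lipa first, and in asbestos F-high cells 7 were higher and Mitf was lower. In asbestos F-low cells none was higher and the membrane protein gene Scarb2 was lower. Smpd1 was called higher beside it by DESeq2, by limma, with RLE size factors and with the replicate block. By edgeR 6 of the 42 had an unadjusted p under 0.05 there, and the share of all genes at that cutoff was not counted. All genes tested gave 5.11% higher and 2.91% lower in naive, 4.84 and 2.47% in asbestos F-high and 3.80 and 3.41% in F-low cells. The medians of the 42 were 0.15, 0.16 and 0.00. Lipa and the sphingomyelinase gene Smpd1 were called in both F-high comparisons, each with its own control libraries.

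With all 24 libraries the age calls were 0, 1 and 0, against 2.03, 4.76 and 1.29% of all genes. In asbestos F-high cells the median of the 42 fell to 0.05, against 0.04 over all genes, with 24 positive and 18 negative, and in naive and F-low cells it was 0.14 and -0.00. Leaving out 1 library gave 2 to 8 calls in naive cells, with the fewest without old naive replicate 4. In asbestos F-high cells it gave 3 to 8, with the fewest without young asbestos F-high replicate 2 or 4 or old asbestos F-high replicate 4. Over all genes these fits with the fewest calls gave 794 in naive cells, against 1094 with 22 libraries. In asbestos F-high cells they gave 496, 567 and 699, against 997. Monocyte-derived markers were higher in old mice for 2 of 14 in naive, 4 (with 1 lower) in asbestos F-high and 10 in F-low cells. Their summed level in asbestos F-high cells was 1124 to 1369 CPM in young and 1477 to 1700 in old fitted libraries, without overlap, and 3 of 5 neutrophil markers tested were higher there, at sums of 35.8 to 48.2 and 48.1 to 55.3 CPM. Of 12 resident markers 2 were higher in old asbestos F-high cells, at sums of 27002 to 30926 (young) and 40262 to 45089 CPM (old). In F-low cells 2 were higher and 3 lower, at sums of 39694 to 52037 and 57053 to 72142 CPM. The median log2 fold change of the 12 was 0.12 in asbestos F-high and -0.02 in F-low cells. Their part in the lysosomal result was not tested.

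**Figure D1:**
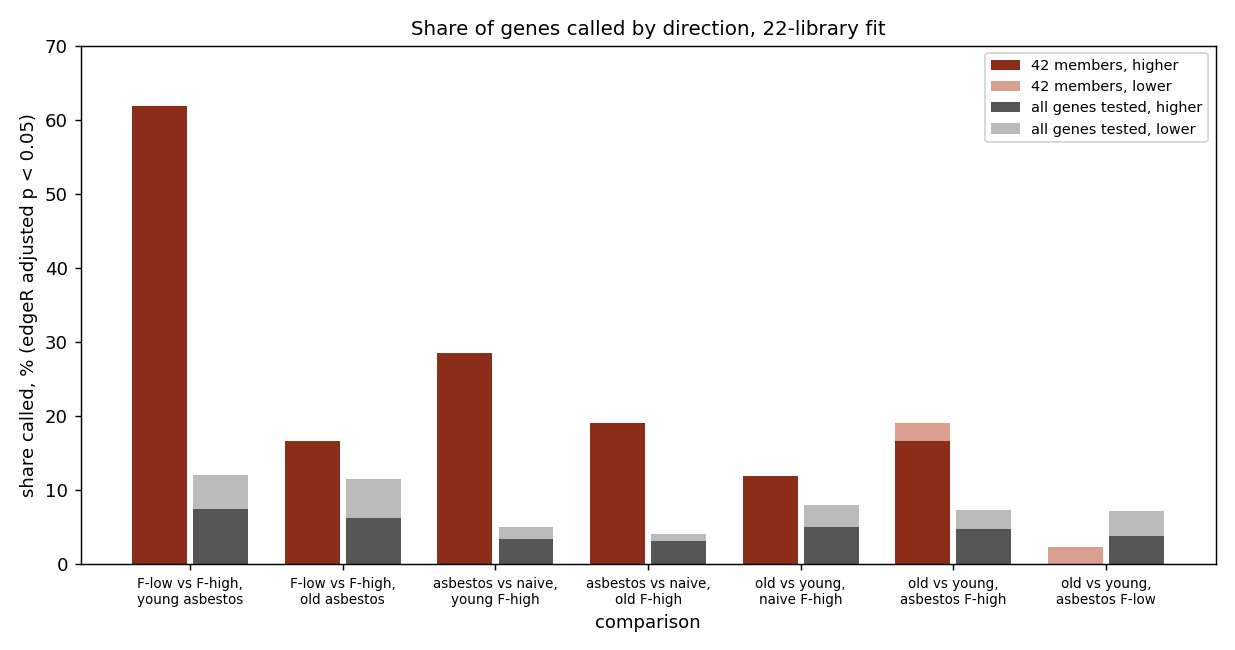
Share of the 42 lysosomal genes and of all 13629 genes tested that was called in each comparison of 2 groups (vertical axis, percent; dark bars higher and light bars lower in the first group). The young sort contrast is the tallest, at 61.9% of the 42 genes against 7.42% of all genes, and in old F-low against young F-low cells no lysosomal gene was called higher.

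Because the lysosomal genes are abundant, the shares were also set beside the 5122 genes with a mean of at least 35.7 CPM, the level of Smpd1. This floor matches abundance only in part. Smpd1 lay at percentile 62.4 of the genes tested, and the next lowest of the 42, Galc, at 76.1. Among those genes 9.22% were higher in young and 6.27% in old F-low cells, against 61.9 and 16.7% of the 42. After asbestos the shares were 5.0 (young) and 4.22% (old) of those genes, against 28.6% (young) and 8 of 42 (old). With age they were 5.53, 5.0 and 2.97% in naive, asbestos F-high and F-low cells, against 11.9, 16.7 and 0%. Of the 42 genes, 33 were called in at least 1 of the 7 comparisons: 13 in 1, 11 in 2, 5 in 3, 3 in 4 and Psap in 5. The 9 called in none were Tfeb, Npc1, Laptm5, Gusb, Manba, Asah1, Atp6v0e, Atp6v1f and Atp6v1g1.

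**Figure D2:**
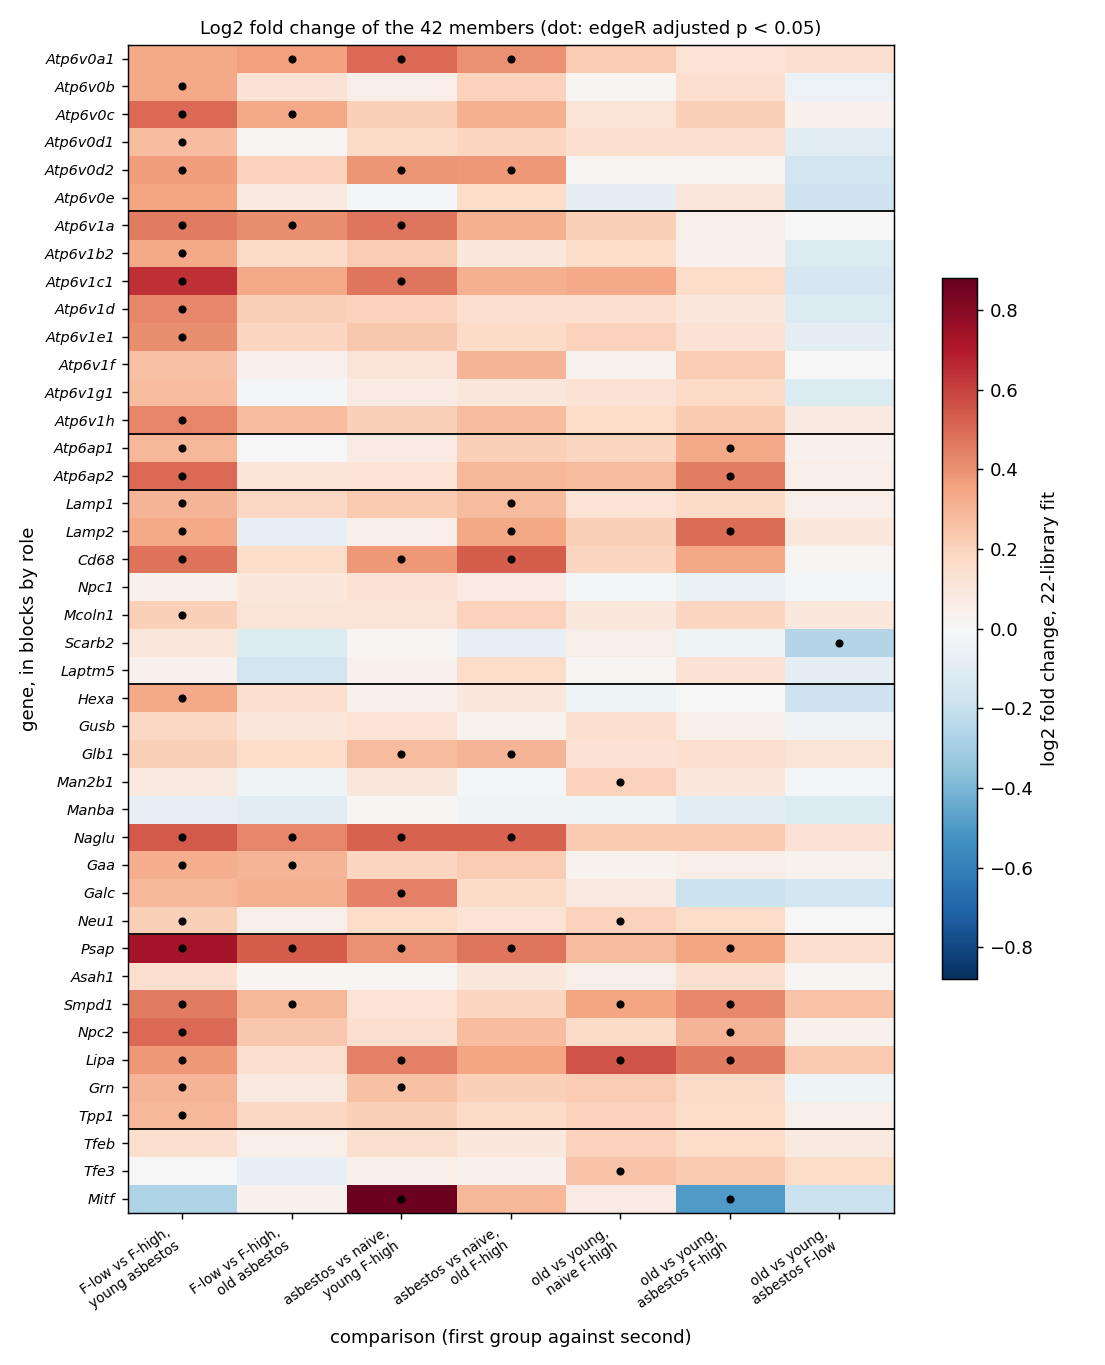
Log2 fold changes of the 42 genes (rows, in blocks by role) in the 7 comparisons (columns); red is higher and blue lower in the first group, and a dot marks an edgeR adjusted p under 0.05. The column of the young sort contrast holds 26 dots, and Psap has a dot in 5 columns.

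The lumenal lipid and protein genes spanned a wide range of levels. Per kb of exon Psap was the most abundant of the 42, at 3851 CPM per kb over the 22 libraries, and Grn, which encodes progranulin, stood at 395, Lipa at 165, Asah1 (acid ceramidase) at 139, Npc2 at 112, Tpp1 (tripeptidyl peptidase) at 67.3 and Smpd1 at 10.7. Psap (ENSMUSG00000004207, chromosome 10, 60277627 to 60302597, plus strand on GRCm38) read 7521, 6207, 5965 and 5874 CPM in the young naive and 8124, 7454, 7713 and 7812 in the old naive libraries. After asbestos, the F-high libraries read 9324, 7718 and 8270 CPM (young) and 10893, 9803 and 11658 (old), with 6040 and 6596 in the libraries left out. In F-low cells the values were 14865, 14524, 13533 and 13108 CPM (young) and 15574, 13356, 15085 and 18084 (old). Each step was apart from the one before at both ages: the fitted asbestos F-high libraries lay above the naive ones, and the F-low libraries above the F-high ones.

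Psap was 1.66-fold higher in young F-low than F-high cells (log2 0.73 ± 0.10, edgeR adjusted p 2.79e-05) and 1.44-fold higher in old ones (log2 0.53 ± 0.10, edgeR adjusted p 0.000930). Both calls held in each fit without 1 library and with all 24 libraries, at edgeR adjusted p 0.00380 and 0.0233. With asbestos it rose by 0.40 ± 0.10, edgeR adjusted p 0.0172, in young and by 0.47 ± 0.10, edgeR adjusted p 0.00649, in old F-high cells. The young call was lost without young naive replicates 3 or 4 or young asbestos F-high replicate 1 (edgeR adjusted p 0.0616 to 0.171) and the old one without old asbestos F-high replicate 4 (edgeR adjusted p 0.0530). Old asbestos F-high cells were higher than young ones (0.35 ± 0.11, edgeR adjusted p 0.0426), a call lost without young asbestos F-high replicates 2 or 4 or old asbestos F-high replicates 1 or 4 (edgeR adjusted p 0.112 to 0.196), while in naive cells the change was 0.28 ± 0.09, edgeR adjusted p 0.0585.

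Lipa, the lysosomal acid lipase that frees cholesterol and fatty acids from lipoprotein lipid (ENSMUSG00000024781, chromosome 19, 34492318 to 34527474, minus strand), had the largest age difference of the 42 in naive cells. Young naive libraries had 885, 602, 662 and 661 CPM and old naive ones 1040, 898, 1125 and 1061, so that all old values were above all young ones. Fitted asbestos F-high libraries had 1056, 883 and 928 (young) and 1269, 1247 and 1435 (old) CPM, again without overlap, and those left out 350 and 940. F-low libraries had 1350, 1099, 1290 and 1240 (young) and 1521, 1383, 1351 and 1590 (old) CPM, where the lowest old value was only just above the highest young one. The age difference was 0.55 ± 0.10, edgeR adjusted p 0.00100, in naive cells and held in all 8 fits without 1 library. In asbestos F-high cells it was 0.46 ± 0.12, edgeR adjusted p 0.0171, lost without young asbestos F-high replicates 2 or 4 or old asbestos F-high replicate 4 (edgeR adjusted p 0.0719 to 0.0999), and in F-low cells 0.23 ± 0.10, edgeR adjusted p 0.192. Lipa also rose with asbestos in young mice (0.44 ± 0.11, edgeR adjusted p 0.0179), although the groups overlapped and the call was lost without young naive replicates 2 or 3 or 4 or young asbestos F-high replicate 1 (edgeR adjusted p 0.0525 to 0.171). In old mice the asbestos change was 0.35 ± 0.11, edgeR adjusted p 0.0720. The young sort contrast was 0.38 ± 0.11, edgeR adjusted p 0.0252, lost without young asbestos F-high replicates 2 or 4 or young F-low replicates 1 or 3 (edgeR adjusted p 0.0524 to 0.141), and the old one 0.15 ± 0.11, edgeR adjusted p 0.464.

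Smpd1, acid sphingomyelinase (ENSMUSG00000037049, chromosome 7, 105554360 to 105558389, plus strand), was the least abundant of the 42 in CPM. Its naive values were 27.5, 28.0, 25.4 and 25.1 CPM in young and 32.0, 32.3, 32.4 and 37.8 in old libraries. Asbestos F-high libraries had 30.8, 28.9 and 26.2 (young) and 38.3, 38.0 and 38.4 (old), and the libraries left out, at 27.0 and 36.7, were close to their groups. F-low values were 44.6, 38.1, 37.0 and 38.0 (young) and 46.9, 51.4, 44.3 and 44.7 (old). Old libraries lay above young ones in both F-high comparisons, by 0.35 ± 0.08, edgeR adjusted p 0.00644, in naive and 0.42 ± 0.09, edgeR adjusted p 0.00552, in asbestos cells. Neither call was lost in a fit without 1 library, and the asbestos one also held with all 24 libraries (edgeR adjusted p 0.0134). In F-low cells the age difference was 0.25 ± 0.08, edgeR adjusted p 0.0517. The sort contrast was 0.46 ± 0.08, edgeR adjusted p 0.000747, in young and 0.29 ± 0.08, edgeR adjusted p 0.0239, in old mice, the latter lost without old asbestos F-high replicates 1 or 2 or 4 or old F-low replicate 2 (edgeR adjusted p 0.0686 to 0.0859). With asbestos, F-high cells changed by 0.12 ± 0.09, edgeR adjusted p 0.528 (young), and 0.19 ± 0.08, edgeR adjusted p 0.245 (old).

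Npc2 averaged 519 ± 26.2 CPM (SD, n = 3) in young F-high and 733 ± 51.7 (n = 4) in young F-low cells after asbestos, higher in F-low by 0.50 ± 0.08, edgeR adjusted p 0.000294, a call held in all 7 fits without 1 library. In old mice the F-high mean was 637 ± 27.9 (n = 3), and the age difference in F-high cells of 0.30 ± 0.09, edgeR adjusted p 0.0446, was lost without young asbestos F-high replicates 2 or 4 or old asbestos F-high replicates 1 or 2 or 4 (edgeR adjusted p 0.0610 to 0.160) and turned to -0.06 with all 24 libraries. Grn, whose product is cut into granulins in the lysosome, went from 1083 ± 66.4 CPM (SD, n = 4) in young naive to 1295 ± 68.0 (n = 3) in asbestos F-high and 1591 ± 53.0 (n = 4) in F-low cells. The first step was 0.26 ± 0.07, edgeR adjusted p 0.0420, lost without young naive replicates 2 or 3 or 4 or young asbestos F-high replicates 1 or 4 (edgeR adjusted p 0.0611 to 0.229), and the second 0.30 ± 0.07, edgeR adjusted p 0.00893, lost without young asbestos F-high replicate 2 (edgeR adjusted p 0.0705). In old mice the means were 1259, 1460 and 1545 CPM, with steps of 0.21 ± 0.07, edgeR adjusted p 0.106, and 0.08 ± 0.07, edgeR adjusted p 0.574. Its age differences were 0.22 ± 0.07, 0.17 ± 0.08 and -0.04 ± 0.07 in naive, asbestos F-high and F-low cells, at edgeR adjusted p 0.0514, 0.209 and 0.790. Tpp1 was called in the young sort contrast (0.29), lost without young asbestos F-high replicates 2 or 4 or young F-low replicates 1 or 3 (edgeR adjusted p 0.0665 to 0.111), and Asah1 in no comparison, its changes ranging from 0.01 (asbestos, young) to 0.15 (sort, young).

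**Figure D3:**
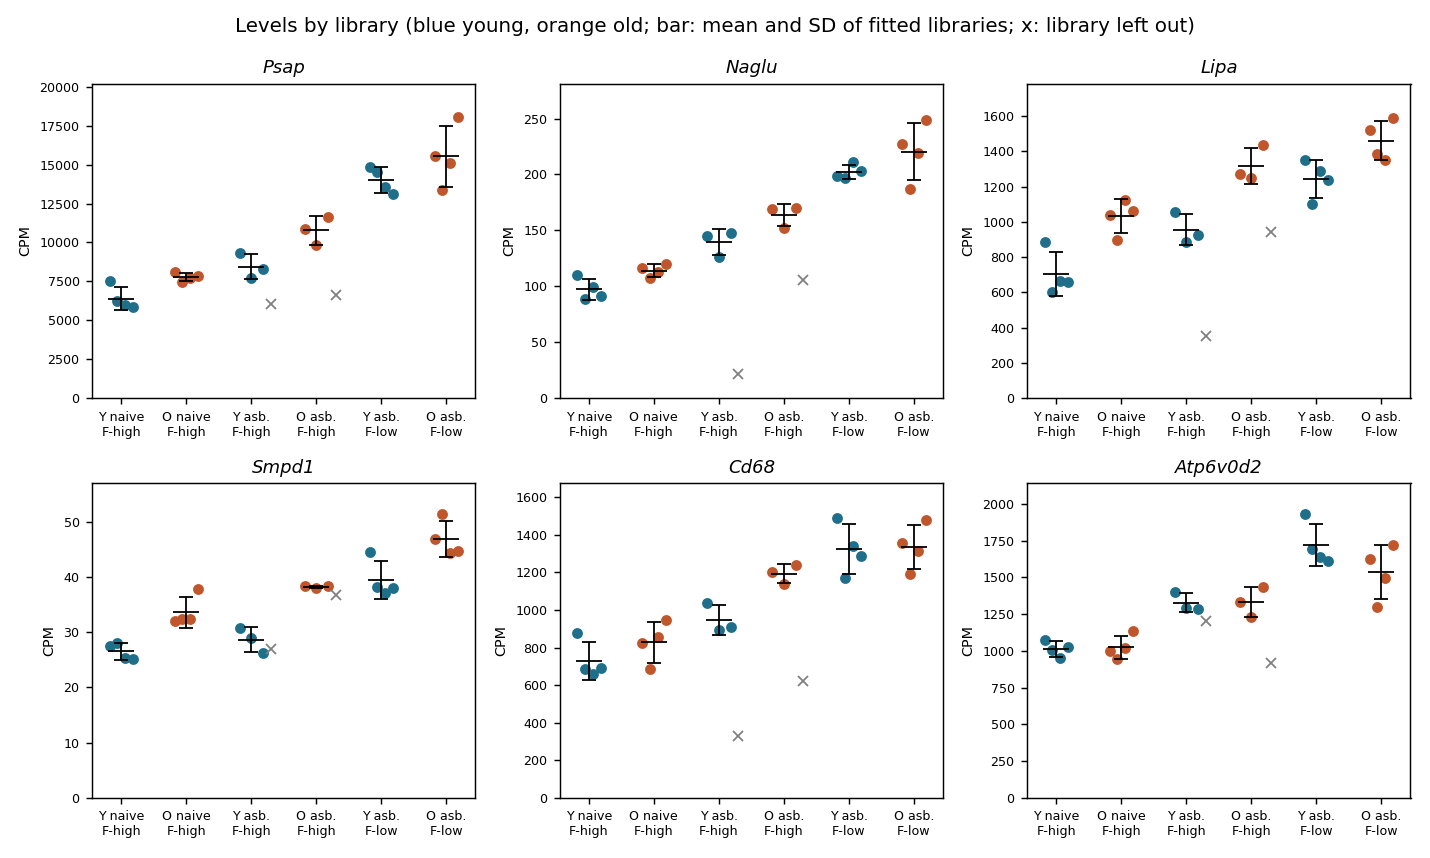
CPM of Psap, Naglu, Lipa, Smpd1, Cd68 and Atp6v0d2 in each library (points; vertical axes start at 0) of the 6 groups, with the mean and SD of the fitted libraries; crosses are the 2 libraries left out. Among fitted libraries Psap and Naglu lie higher after asbestos than in naive cells and highest in F-low cells at both ages. The left-out libraries read 6040 (young) and 6596 (old) CPM for Psap and 21.4 and 106 for Naglu, none above all naive libraries of its age.

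Among the 9 glycosidases, which remove sugars from glycoproteins, glycolipids and glycosaminoglycans, Naglu was called most often. Naglu (ENSMUSG00000001751, chromosome 11, 101070012 to 101077672, plus strand), the promoter of which is printed above, read 110, 88.8, 99.3 and 91.1 CPM in young naive and 116, 107, 113 and 120 in old naive libraries. The asbestos F-high values were 145, 126 and 148 (young) and 169, 152 and 170 (old), and the libraries left out read 21.4 and 106. F-low cells had 199, 197, 211 and 203 (young) and 227, 187, 219 and 249 (old) CPM. As for Psap, the fitted groups did not overlap at either step at either age. Asbestos raised it by 0.52 ± 0.09, edgeR adjusted p 0.000770, in young and by 0.52 ± 0.09, edgeR adjusted p 0.000876, in old cells. F-low was above F-high by 0.54 ± 0.09, edgeR adjusted p 0.000211, in young and 0.43 ± 0.09, edgeR adjusted p 0.00174, in old mice. All 4 calls held in every fit without 1 library, and none of them with all 24 libraries, where the log2 values were 0.19, 0.40, 0.88 and 0.56.

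Man2b1, lysosomal alpha-mannosidase, was higher in old naive cells (973 ± 49.4 against 846 ± 10.6 CPM, SD, n = 4 each) by 0.20 ± 0.05, edgeR adjusted p 0.0183, a call lost without old naive replicates 1 or 4 (edgeR adjusted p 0.0551 to 0.0660). Its old and young libraries did not overlap there, and it was called nowhere else. Neu1, a sialidase, was higher in old naive cells (0.20) and in young F-low cells (0.21), each lost in 5 fits without 1 library. Hexa, a subunit of hexosaminidase that cleaves gangliosides, rose in the young sort contrast (0.33), and Gaa, the acid glucosidase that degrades glycogen, in the young (0.32) and old ones (0.30). The Hexa call held without any 1 library, and those of Gaa were lost without young asbestos F-high replicates 2 or 4 (edgeR adjusted p 0.0566 to 0.0970) in young and without old asbestos F-high replicates 1 or 2 or old F-low replicate 4 (edgeR adjusted p 0.135 to 0.149) in old mice. Glb1 was called with asbestos at both ages (0.28 and 0.30). The young call was lost without young naive replicates 3 or 4 or young asbestos F-high replicates 1 or 4 (edgeR adjusted p 0.0504 to 0.293) and the old one without old naive replicates 1 or 2 or 4 or old asbestos F-high replicates 1 or 4 (edgeR adjusted p 0.0569 to 0.111), and both with all 24 libraries. Galc, which degrades galactosylceramide, was called with asbestos in young mice (0.44, lost without young asbestos F-high replicate 1 (edgeR adjusted p 0.0946), against 0.17 in old mice, edgeR adjusted p 0.429). Gusb and Manba were called in no comparison. Manba, a beta-mannosidase, stayed between group means of 140 and 159 CPM.

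Of the 7 membrane proteins, Laptm5 (907 CPM per kb), Cd68 (842) and Lamp1 (490) were the most abundant per kb of exon, and Mcoln1 (15.7) the least. Cd68, a heavily glycosylated macrophage protein of late endosomes (ENSMUSG00000018774, chromosome 11, 69664213 to 69666153, minus strand), read 875, 687, 658 and 691 CPM in young naive and 826, 684, 858 and 946 in old naive libraries. In asbestos F-high cells it read 1036, 892 and 909 (young) and 1203, 1140 and 1238 (old), with 330 and 623 in the libraries left out. F-low libraries had 1492, 1169, 1341 and 1290 (young) and 1354, 1192, 1316 and 1479 (old). Young F-low values were all above the fitted young F-high ones, while the old F-low and F-high values overlapped. The asbestos rise was 0.53 ± 0.11, edgeR adjusted p 0.00559, in old cells, held without any 1 library. In young cells it was 0.38 ± 0.11, edgeR adjusted p 0.0424, lost without young naive replicates 2 or 3 or 4 or young asbestos F-high replicates 1 or 2 or 4 (edgeR adjusted p 0.0628 to 0.266). The sort contrast was 0.48 ± 0.11, edgeR adjusted p 0.00423, in young mice, held without any 1 library, and 0.16 ± 0.11, edgeR adjusted p 0.411, in old ones. Age differences were 0.19 ± 0.10, 0.34 ± 0.12 and 0.01 ± 0.10 in naive, asbestos F-high and F-low cells (edgeR adjusted p 0.300, 0.0833 and 0.966).

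Lamp1 and Lamp2, the main glycoproteins of the lysosomal membrane, differed in pattern. Lamp1 rose from 1136 ± 64.9 CPM (SD, n = 4) in old naive to 1382 ± 68.3 (n = 3) in old asbestos F-high cells, by 0.28 ± 0.07, edgeR adjusted p 0.0182, lost without old naive replicate 2 or old asbestos F-high replicates 1 or 4 (edgeR adjusted p 0.0534 to 0.106), and in young mice the change was 0.23 ± 0.07, edgeR adjusted p 0.0508. It was higher in young F-low (1505 ± 57.9, n = 4) than in F-high cells (1226 ± 58.6, n = 3) by 0.30 ± 0.07, edgeR adjusted p 0.00515, held without any 1 library, and in old mice the difference was 0.18 ± 0.07, edgeR adjusted p 0.105. With age it changed by 0.12 ± 0.06, 0.17 ± 0.07 and 0.05 ± 0.06, at edgeR adjusted p of 0.296, 0.169 and 0.709. Lamp2 (ENSMUSG00000016534, chromosome X, 38401357 to 38456454, minus strand) read 441, 473, 395 and 426 CPM in young naive and 512, 498, 505 and 496 in old naive libraries. Asbestos F-high libraries had 484, 439 and 437 (young) and 686, 571 and 652 (old), and those left out 626 and 491, so the young one was above its group and the old one below. F-low values were 620, 605, 527 and 522 (young) and 678, 535, 570 and 638 (old).

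For Lamp2, the fitted old asbestos F-high libraries lay above both the young ones and the old naive ones. They were above the young ones by 0.49 ± 0.09, edgeR adjusted p 0.00177, a call held in all 6 fits without 1 library, and above old naive cells by 0.34 ± 0.09, edgeR adjusted p 0.0257, lost without old naive replicates 2 or 3 or 4 or old asbestos F-high replicates 1 or 4 (edgeR adjusted p 0.0505 to 0.149). The age difference with all 24 libraries was 0.27 (edgeR adjusted p 0.162). Young F-low cells were above F-high ones by 0.33 ± 0.09, edgeR adjusted p 0.0152, lost without young asbestos F-high replicates 2 or 4 or young F-low replicates 1 or 2 (edgeR adjusted p 0.0514 to 0.0783), whereas old ones differed by -0.07 ± 0.09, edgeR adjusted p 0.703. The difference between these sort contrasts was -0.40 ± 0.12, at an unadjusted p of 0.00361 and an edgeR adjusted p of 0.511.

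Scarb2, which carries glucocerebrosidase to the lysosome (ENSMUSG00000029426, chromosome 5, 92441314 to 92506833, minus strand), was the gene that fell with age in F-low cells. Young F-low libraries read 370, 368, 362 and 361 CPM and old ones 298, 299, 319 and 302, without overlap, a change of -0.26 ± 0.05, edgeR adjusted p 0.00262, held in all 8 fits without 1 library and at -0.27 (edgeR adjusted p 0.140) with all 24 libraries. In F-high cells it varied little: 360, 330, 323 and 334 (young naive), 368, 330, 356 and 336 (old naive), 347, 348 and 328 (young asbestos) and 326, 326 and 342 (old asbestos) CPM, and the old F-low libraries also lay below the fitted old F-high ones (-0.12 ± 0.06, edgeR adjusted p 0.187). Mcoln1, the calcium channel of the lysosomal membrane that lies upstream of TFEB (ENSMUSG00000004567, chromosome 8, 3500457 to 3515232, plus strand), read 106, 96.1, 103 and 104 CPM in young and 108, 101, 113 and 114 in old naive cells. Its asbestos F-high values were 116, 117 and 97.5 (young) and 130, 123 and 123 (old), and its F-low values 127, 122, 132 and 130 (young) and 133, 127, 138 and 145 (old).

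The range of Mcoln1 over groups was thus narrow, and at each age the F-low mean was the highest. Its only call was the young sort contrast, 0.21 ± 0.07, edgeR adjusted p 0.0450, lost without young asbestos F-high replicate 4 or young F-low replicates 1 or 3 or 4 (edgeR adjusted p 0.0674 to 0.293). In old mice that contrast was 0.11 ± 0.07, edgeR adjusted p 0.363. The asbestos changes were 0.11 ± 0.07, edgeR adjusted p 0.465 (young), and 0.20 ± 0.07, edgeR adjusted p 0.103 (old). Age differences were 0.09 ± 0.06, 0.19 ± 0.07 and 0.09 ± 0.06 (edgeR adjusted p 0.467, 0.136 and 0.502). Npc1, the cholesterol exporter that works with NPC2, was called nowhere and ranged from a mean of 409 to 462 CPM. Laptm5, a transmembrane protein of blood cells, was not called either, and its old F-low libraries lay below the old F-high ones (-0.17 ± 0.06, edgeR adjusted p 0.0505).

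Within the membrane ring V0 of the pump, the paralogous d subunits differed in level, and d2 was called in more comparisons. Per kb of exon Atp6v0d2 stood at 488 CPM and Atp6v0d1, the widely expressed form, at 168. Atp6v0d2 (ENSMUSG00000028238, chromosome 4, 19876841 to 19922605, minus strand) read 1075, 1003, 950 and 1026 CPM in young and 999, 946, 1017 and 1134 in old naive cells. After asbestos its F-high values were 1403, 1295 and 1286 (young) and 1333, 1229 and 1437 (old), with 1203 and 918 in the libraries left out. Its F-low values were 1931, 1696, 1642 and 1612 (young) and 1624, 1300, 1496 and 1724 (old). Fitted asbestos libraries lay above naive ones at both ages, and age itself left the F-high groups overlapping.

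The asbestos rise of Atp6v0d2 was 0.39 ± 0.09, edgeR adjusted p 0.0107, in young and 0.38 ± 0.09, edgeR adjusted p 0.0159, in old mice. The former was lost without young asbestos F-high replicate 1 (edgeR adjusted p 0.0889) and the latter without old naive replicate 2 or old asbestos F-high replicates 1 or 4 (edgeR adjusted p 0.0535 to 0.0989). F-low exceeded F-high by 0.37 ± 0.09, edgeR adjusted p 0.00679, in young mice, held without any 1 library, and the old difference was 0.20 ± 0.09, edgeR adjusted p 0.159. Its age differences were 0.02 ± 0.08, 0.01 ± 0.10 and -0.16 ± 0.08 (edgeR adjusted p 0.952, 0.987 and 0.270). Atp6v0d1 averaged 255 ± 15.1 CPM in young naive (SD, n = 4), 287 ± 13.3 in young asbestos F-high (n = 3) and 347 ± 24.4 in young F-low cells (n = 4). It was called in the young sort contrast alone (0.27 ± 0.07, edgeR adjusted p 0.00851), lost without young asbestos F-high replicate 4 (edgeR adjusted p 0.0525). The asbestos changes were 0.17 ± 0.07 (young) and 0.19 ± 0.07 (old), at edgeR adjusted p 0.157 and 0.127, and the old sort contrast 0.02 ± 0.07, edgeR adjusted p 0.926. Its age differences were 0.14 ± 0.06, 0.15 ± 0.07 and -0.10 ± 0.06 (edgeR adjusted p 0.203, 0.226 and 0.380). Whether the paralogs differ in response was not tested.

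Atp6v0a1, an a subunit of the ring that forms part of the proton path, lies next to Naglu on chromosome 11 (101009452 to 101063719, plus strand). It read 200, 146, 188 and 186 CPM in young naive and 209, 193, 202 and 232 in old naive libraries. The asbestos F-high libraries read 277, 242 and 245 (young) and 285, 244 and 300 (old), and the F-low ones 338, 290, 351 and 300 (young) and 361, 312, 332 and 415 (old). All asbestos libraries that were fitted exceeded the naive libraries of their age. The rises were 0.50 ± 0.11, edgeR adjusted p 0.00748, in young mice, lost without young asbestos F-high replicate 1 (edgeR adjusted p 0.0758), and 0.40 ± 0.11, edgeR adjusted p 0.0350, in old mice, lost without old naive replicates 1 or 2 or 3 or old asbestos F-high replicates 1 or 4 (edgeR adjusted p 0.0690 to 0.174). The sort contrast was called in old mice (0.36 ± 0.11, edgeR adjusted p 0.0317), lost without old asbestos F-high replicates 1 or 2 or old F-low replicates 1 or 4 (edgeR adjusted p 0.0628 to 0.183), and in young mice it was 0.33 ± 0.11, edgeR adjusted p 0.0518. Among the other V0 genes, the proteolipid subunits Atp6v0c (0.50) and Atp6v0b (0.33) rose in young F-low cells, Atp6v0c also in old ones (0.33), and Atp6v0e was called nowhere. The old Atp6v0c call was lost without old asbestos F-high replicates 1 or 2 or old F-low replicates 1 or 4 (edgeR adjusted p 0.0904 to 0.196) and that of Atp6v0b without young asbestos F-high replicate 4 (edgeR adjusted p 0.0554). With all 24 libraries the value of Atp6v0b turned to -0.14, where the young F-high library added back read 825 CPM against 347, 323 and 291 in the rest.

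In the cytosolic part V1, Atp6v1a, the catalytic A subunit (ENSMUSG00000052459, chromosome 16, 44085402 to 44139705, minus strand), was called in 3 comparisons. Naive values were 246, 182, 220 and 222 CPM (young) and 248, 222, 249 and 287 (old). Asbestos F-high values were 333, 275 and 297 (young) and 301, 287 and 351 (old), with 244 and 290 in the libraries left out, and F-low values 431, 394, 427 and 402 (young) and 409, 351, 419 and 479 (old). Young F-low libraries were entirely above the fitted young F-high ones. The sort contrast was 0.46 ± 0.11, edgeR adjusted p 0.00613, in young mice, lost without young asbestos F-high replicate 2 (edgeR adjusted p 0.0558), and 0.41 ± 0.11, edgeR adjusted p 0.0145, in old mice, lost without old asbestos F-high replicates 1 or 2 or old F-low replicate 4 (edgeR adjusted p 0.0665 to 0.0915). Both calls held with all 24 libraries (edgeR adjusted p 0.00919 and 0.0414). The asbestos rise in young mice was 0.47 ± 0.11, edgeR adjusted p 0.0108, lost without young asbestos F-high replicate 1 (edgeR adjusted p 0.111), and in old mice 0.31 ± 0.11, edgeR adjusted p 0.102.

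Of the other V1 genes, Atp6v1c1 (0.64), Atp6v1h (0.43), Atp6v1d (0.42), Atp6v1e1 (0.41) and the ATP-binding B2 subunit Atp6v1b2 (0.33) rose in young F-low cells. The calls of Atp6v1h and Atp6v1d were each lost without young asbestos F-high replicates 2 or 4 or young F-low replicates 1 or 2, at edgeR adjusted p of up to 0.0953 and 0.155, and the other 3 held without any 1 library. Atp6v1c1, the C1 subunit that helps join V1 to V0, rose in young asbestos F-high cells too (0.47), from 163 ± 22.3 (SD, n = 4) to 226 ± 36.3 CPM (n = 3), lost without young naive replicates 3 or 4 or young asbestos F-high replicate 1 (edgeR adjusted p 0.0928 to 0.281). Atp6v1f and Atp6v1g1 were called in no comparison, and no V1 gene was called with age. Of the accessory proteins, Atp6ap1 averaged 397 ± 8.99 CPM in young and 499 ± 45.0 in old asbestos F-high cells (SD, n = 3 each), a difference of 0.33 ± 0.07, edgeR adjusted p 0.00648, lost without old asbestos F-high replicate 1 (edgeR adjusted p 0.0619). It was higher in young F-low cells by 0.29 ± 0.07, edgeR adjusted p 0.00694, held without any 1 library. Atp6ap2, also known as the prorenin receptor, showed both changes (0.45 and 0.50), the first lost without young asbestos F-high replicates 2 or 4 or old asbestos F-high replicates 1 or 4 (edgeR adjusted p 0.0848 to 0.136), and both turned sign with all 24 libraries (-0.27 and -0.07).

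The MiT/TFE factors did not move together. Tfeb (ENSMUSG00000023990, chromosome 17, 47737030 to 47792419, plus strand) read 106, 103, 83.1 and 71.7 CPM in young naive and 104, 99.6, 103 and 111 in old naive cells. Its asbestos F-high values were 101, 100 and 99.2 (young) and 132, 106 and 95.6 (old), and its F-low values 109, 107, 118 and 107 (young) and 119, 124, 116 and 107 (old). The groups overlapped in 6 of the 7 comparisons, and the young sort contrast, the exception, was 0.14 ± 0.11, edgeR adjusted p 0.461. No comparison was called. The sort contrast in old mice was 0.06 ± 0.11, edgeR adjusted p 0.804. Its asbestos changes were 0.14 ± 0.11, edgeR adjusted p 0.572 (young), and 0.09 ± 0.11, edgeR adjusted p 0.718 (old). The age differences were 0.20 ± 0.10, 0.16 ± 0.12 and 0.08 ± 0.10 (edgeR adjusted p 0.267, 0.514 and 0.734). These tests do not show that Tfeb RNA was equal, and the location of the protein, through which TFEB is mostly regulated, was not measured.

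Tfe3 (ENSMUSG00000000134, chromosome X, 7762560 to 7775202, plus strand) was called in 1 comparison, with age in naive cells. It read 66.0, 67.4, 73.2 and 69.9 CPM in young and 81.2, 79.4, 82.6 and 84.7 in old naive libraries, with all old values above all young ones. Asbestos F-high values were 70.7, 69.3 and 76.8 (young) and 93.3, 77.9 and 82.3 (old), again without overlap, and F-low values 67.7, 70.2, 73.4 and 77.1 (young) and 89.6, 79.1, 76.2 and 77.5 (old). The age difference was 0.25 ± 0.07, edgeR adjusted p 0.0246, in naive cells, lost without young naive replicates 1 or 4 or old naive replicates 3 or 4 (edgeR adjusted p 0.0524 to 0.0724), then 0.23 ± 0.08, edgeR adjusted p 0.0838, in asbestos F-high, and 0.16 ± 0.07, edgeR adjusted p 0.170, in F-low cells. Its sort contrasts were -0.00 ± 0.07 (young) and -0.07 ± 0.07 (old), and its asbestos changes 0.06 ± 0.07 and 0.04 ± 0.07, with edgeR adjusted p of 0.991, 0.654, 0.732 and 0.813.

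Mitf (ENSMUSG00000035158, chromosome 6, 97807052 to 98021349, plus strand) had the largest asbestos change among the 42 in young mice. Young naive libraries read 60.0, 54.8, 62.0 and 57.8 CPM, and the young asbestos F-high ones 88.3, 121 and 111, with 26.2 in the library left out. Old naive libraries read 52.1, 56.6, 61.3 and 77.2 and old asbestos F-high ones 79.0, 72.0 and 75.8, which overlap. F-low values were 75.6, 99.0, 88.3 and 91.0 (young) and 88.0, 68.6, 73.0 and 80.9 (old). In young mice Mitf rose 1.82-fold with asbestos (log2 0.86 ± 0.12, edgeR adjusted p 0.000114), a call held in all 7 fits without 1 library and lost with all 24 (log2 0.57, edgeR adjusted p 0.234). The old change was 0.29 ± 0.12, edgeR adjusted p 0.195. Old asbestos F-high cells were below young ones, with a difference of -0.50 ± 0.13, edgeR adjusted p 0.0184, lost without young asbestos F-high replicates 2 or 4 or old asbestos F-high replicates 2 or 4 (edgeR adjusted p 0.0553 to 0.133). The difference of the asbestos response between ages was -0.57 ± 0.17, with an unadjusted p of 0.00276 and an edgeR adjusted p of 0.578, so a difference between the ages was not called. Its sort contrasts were -0.27 ± 0.12, edgeR adjusted p 0.155 (young), and 0.04 ± 0.12, edgeR adjusted p 0.900 (old), and its age differences in naive and F-low cells 0.07 ± 0.11, edgeR adjusted p 0.779, and -0.19 ± 0.11, edgeR adjusted p 0.363.

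**Figure D4:**
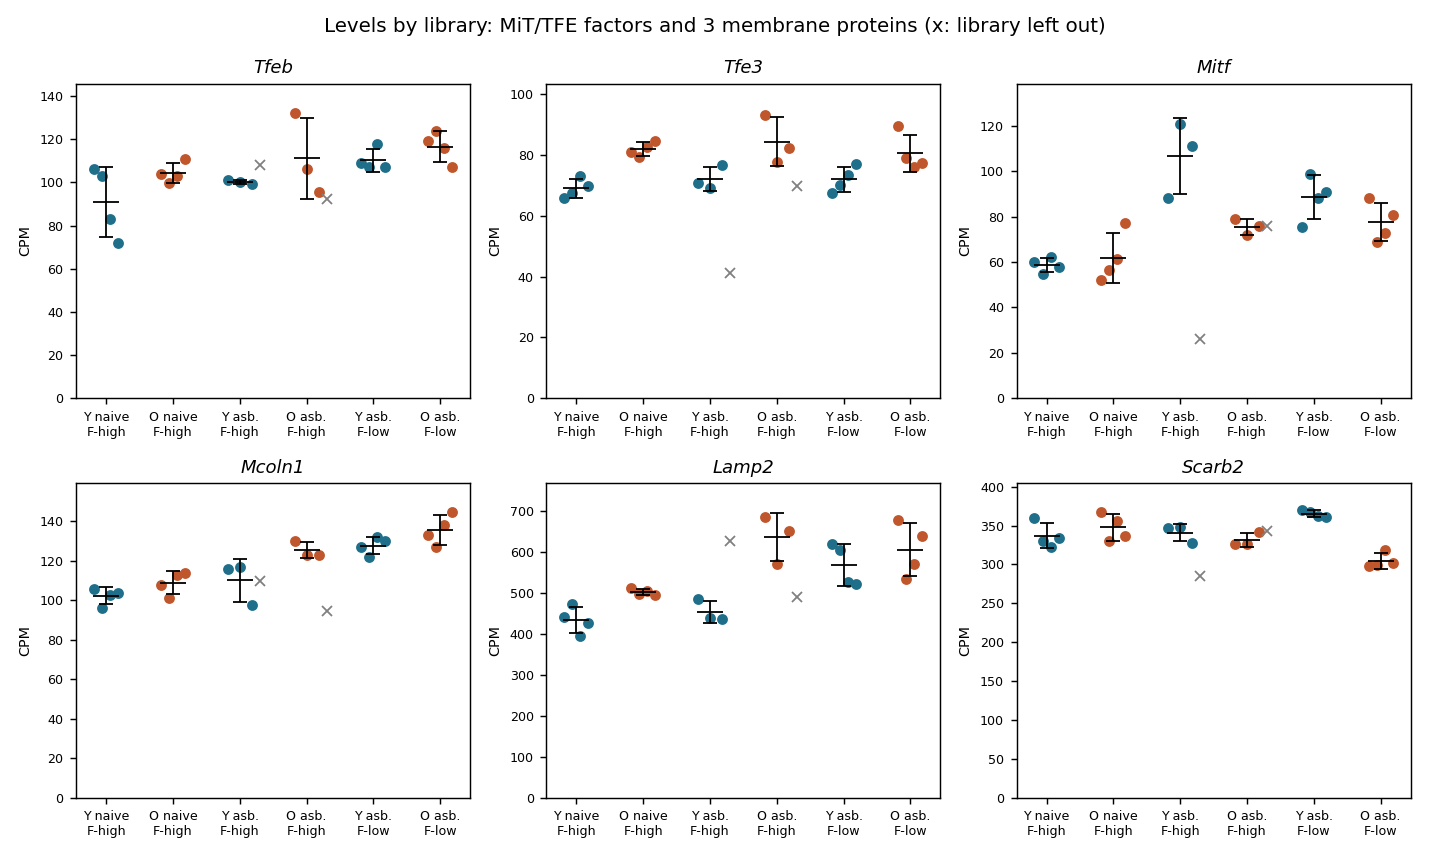
CPM of Tfeb, Tfe3, Mitf, Mcoln1, Lamp2 and Scarb2 in each library (points; vertical axes start at 0) of the 6 groups, with the mean and SD of the fitted libraries; crosses are the libraries left out. Among means of fitted libraries Mitf is highest in young asbestos F-high cells, whose fitted libraries read 88.3 to 121 CPM and whose left-out library reads 26.2, and Scarb2 is lowest in old F-low cells.

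Whether age changed the asbestos or the sort contrast was tested directly by interaction. No lysosomal gene was called in either test by edgeR, DESeq2 or limma, where edgeR called 0.0147% of all genes in each with 22 libraries and 0% with 24. At an unadjusted p under 0.05 there were 2 of the 42 in the asbestos interaction, Mitf and Lamp2, and 10 in the sort interaction. With 24 libraries these numbers were 0 and 1. The share of all genes under this unadjusted cutoff was not counted, so these numbers have no background beside them. With 22 libraries the sort contrast was smaller in old than in young mice for 38 of the 42 genes, with a median difference of -0.17, where 47.3% of all genes had a positive difference and the median was -0.01. With 24 libraries it was smaller for 25 and larger for 17, with a median of -0.09 against -0.04 over all genes, so the near-uniform direction rests on leaving out the 2 libraries. The largest difference with 22 libraries was that of Lamp2, and next by p came Atp6ap1 (-0.29 ± 0.10, unadjusted p 0.00664, edgeR adjusted p 0.553) and Scarb2 (-0.22 ± 0.08, unadjusted p 0.0110, edgeR adjusted p 0.606). The 26 calls in young and 7 in old mice are therefore not shown to differ gene by gene. In the asbestos interaction 21 genes were positive and 21 negative, with a median of 0.01.

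**Figure D5:**
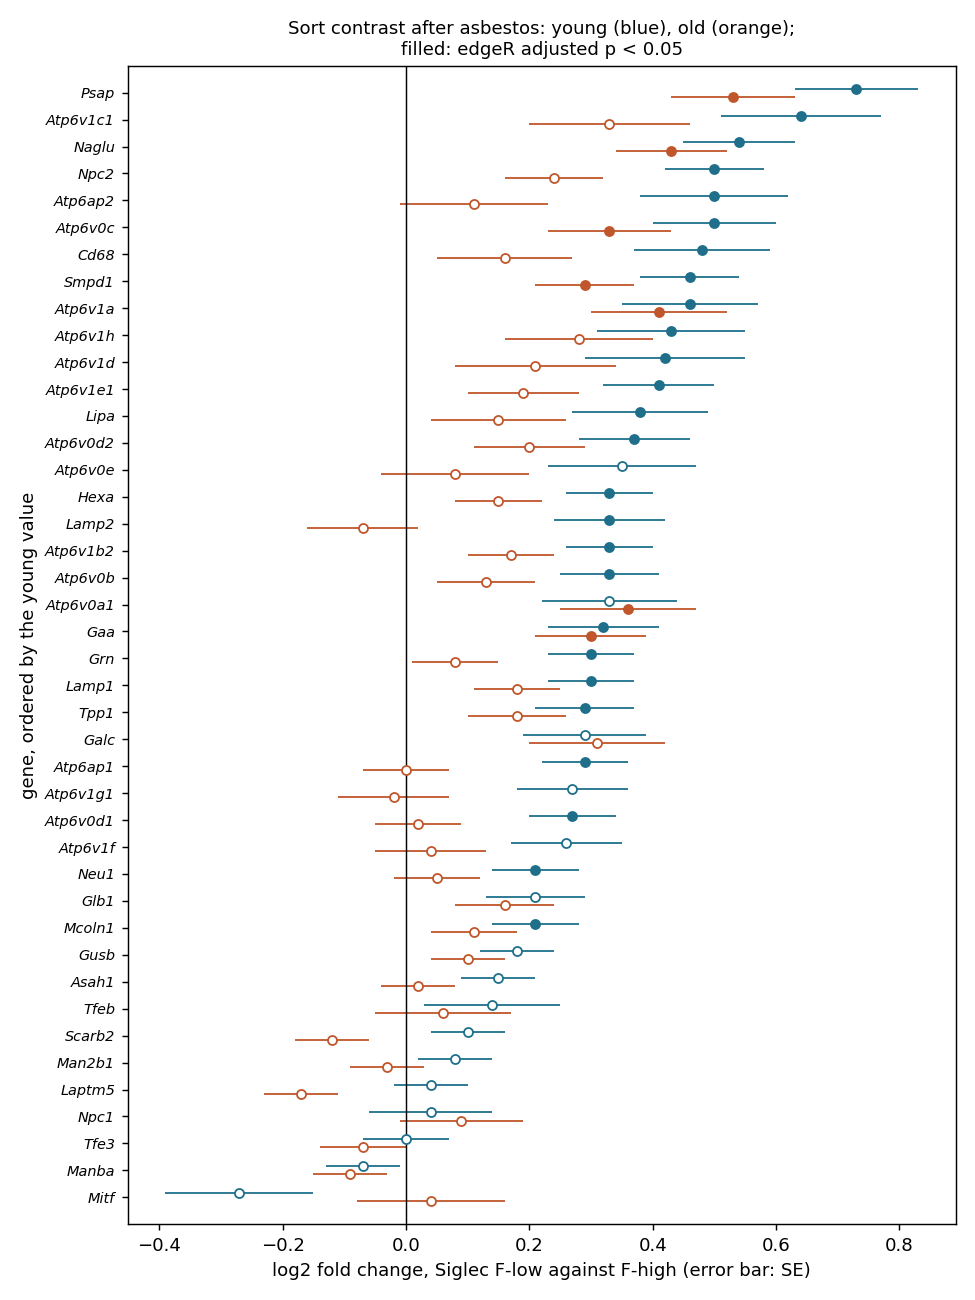
Log2 fold change of F-low against F-high cells after asbestos for each of the 42 genes (rows, ordered by the young value), in young (blue) and old (orange) mice with SE; filled points have an edgeR adjusted p under 0.05. In this 22-library fit the old point lies left of the young one for 38 of 42 genes (25 with all 24 libraries), and Psap has the largest value in both ages.

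The other genes of the pathway were read from lists that hold none of the 42, and their counts can be set beside the shares of all genes given above for each comparison. Cathepsins, the proteases of the lysosome, were called mostly in the sort and asbestos comparisons. Of 12, 6 were higher in young and 4 in old F-low cells, and 4 were higher with asbestos at either age, with none lower in these comparisons. These counts were 3, 3, 1 and 1 with all 24 libraries. Ctsl rose from a mean of 336 to 814 CPM in the young sort contrast (1.28 ± 0.13, edgeR adjusted p 6.02e-07) and Ctsb from 1952 to 3577 (0.87 ± 0.09, edgeR adjusted p 6.18e-07). Ctsk, best known from osteoclasts, was at 407 in young naive, 1111 in asbestos F-high and 2767 CPM in F-low cells. Age raised 3 of 12 in asbestos F-high cells (Ctsb, Ctsd and Ctsl; 0 with 24 libraries) and none in naive or F-low cells.

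Other lysosomal hydrolases gave 17 higher and 1 lower of 38 in young F-low cells and 6 higher and 3 lower in old ones, and with all 24 libraries 7 and 1 in young and 4 and 1 in old ones. Gla, alpha-galactosidase A, was higher in young F-low cells by 0.89 ± 0.09 (edgeR adjusted p 7.25e-07), and Lgmn, the protease legumain, by 1.07 ± 0.13 (edgeR adjusted p 3.12e-06). With asbestos 5 rose and 1 fell in young and 6 rose in old mice, among them Acp5, the tartrate-resistant acid phosphatase, by 0.89 and 1.21, where 24 libraries gave 2 higher at each age. With age 5, 4 and 0 rose and 2, 1 and 1 fell in naive, asbestos F-high and F-low cells, against 1, 3 and 0 and 1, 1 and 0 with 24 libraries. Pld4, a nuclease of the endolysosome, was among the lower in all 3, at -0.70, -0.57 and -0.34.

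Of 29 other lysosomal membrane proteins tested, 8 were higher and 1 lower in the sort contrast at each age, led by the metal transporter Slc11a1 (2.45 ± 0.23 in young, edgeR adjusted p 1.63e-07, and 1.81 ± 0.21 in old mice, edgeR adjusted p 3.34e-06). Asbestos gave 2 higher in young and 6 higher and 1 lower in old mice. With 24 libraries 6 and 2 were higher in the sort contrasts and 1 with asbestos at each age, with none lower. Age gave 4, 3 and 5 higher and 0, 0 and 1 lower in naive, asbestos F-high and F-low cells (2, 1 and 0 higher with 24 libraries), and Cd63, a tetraspanin of late endosomes, rose from 99.8 to 270 CPM in naive cells (1.44 ± 0.19, edgeR adjusted p 2.35e-05). Of 13 other V-ATPase genes tested, Tcirg1, the a3 subunit of osteoclasts and macrophages, rose in young (0.45) and old F-low cells (0.43) and with asbestos in old mice (0.33), and Wdr7 with asbestos in young mice (0.33). In young F-low cells 2 of the 13 fell, Dmxl2 (-0.35) and Tldc2 (under 1 CPM in both groups), and with age Ncoa7 fell in naive cells (-0.72). With 24 libraries 1 of the 13 was higher in each sort contrast and 1 lower with age in naive cells, and none was called elsewhere.

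Genes that deliver enzymes to the lysosome included 5 higher and 1 lower of 24 in young and 2 higher and 1 lower in old F-low cells. The old counts are close to the background of 6.30% higher and 5.28% lower, and with 24 libraries 1 was higher in each. Igf2r, the mannose 6-phosphate receptor, rose from a mean of 11.6 to 65.9 CPM in young (2.52 ± 0.27, edgeR adjusted p 8.44e-07) and from 20.3 to 83.9 in old mice (2.05 ± 0.26, edgeR adjusted p 7.99e-06), and Sort1, another sorting receptor, fell by 0.25 and 0.36 on the log2 scale. With asbestos 2 rose in young mice and none in old, and with age 4, 0 and 0 rose (1, 0, 1, 1 and 0 with 24 libraries). The last list, of 21 genes, was named for nutrient signalling to TFEB but also held Tfec, a further MiT/TFE factor. Of the 21, 5 were higher in young and 2 in old F-low cells, 5 and 4 with asbestos in young and old mice, and 3, 2 and 1 with age. Tfec was lower in old than in young F-low cells (-0.39). With 24 libraries 3 and 0 were higher in the sort contrasts, 1 and 0 with asbestos, and 0, 1 and 0 with age, with 1 lower with age in asbestos F-high cells. Rragd, a Rag GTPase, was called higher in all but the F-low age comparison, at low levels: its means ran from 0.341 CPM in young naive to 12.9 in old F-low cells. Rragc rose with asbestos by 0.30 at each age and by 0.41 in young F-low cells, and Fnip2 by 0.57 and 0.56 with asbestos and by 0.73 and 0.52 in F-low cells. Neither interaction called a gene of these lists.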

How the data were processed

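RNA-seq counts per gene were deposited by the authors in 1 table of whole numbers, with 1 column for each of the 24 libraries and no normalization. Per the submitters' processing notes, bcl2fastq 2.19.1, FastQC, Trimmomatic 0.36, STAR 2.6.0, HTSeq 0.11.2 and the build mm10 were used, with their settings not given in the sources used here. Of the 43430 gene IDs, 42546 (98.0%) were found in GENCODE M21, which gave positions and exon lengths on GRCm38. Symbols came from a separate list of gene names, which held 42462 of the IDs.

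Differences were tested with edgeR 4.0.16 in R 4.3.3 (TMM factors, filterByExpr at 10 counts per library and 15 in total, quasi-likelihood test, Benjamini-Hochberg adjustment) in 1 model of the 6 groups over 22 libraries. The SE is the log2 fold change divided by the square root of F. The alternatives were all 24 libraries, limma 3.58.1 voom with quality weights, DESeq2 1.42.0, RLE size factors, no filter, the compared groups alone, the replicate number as a block, and each library left out. Deviations of same-numbered F-low and F-high libraries correlated at 0.157, 0.189 and 0.206 in old mice, all above 0.1. In young mice they correlated at 0.316, 0.0844 and 0.236, of similar size though 1 pair was below 0.1. The block is therefore given for both sort contrasts, and the labels do not tie the numbers to animals. In each comparison but the old sort contrast at least 1 pair was at or below 0.1.

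Genes printed with full values are 10 chosen by name (Tfeb, Tfe3, Mitf, Mcoln1, Atp6v0d1, Atp6v0d2, Lamp1, Cd68, Lipa and Grn) and the 4 called genes of smallest p per direction and comparison. The 42 genes, the other lists and the markers were chosen with earlier results of these data known. Counts were also simulated for the young sort contrast over 13629 genes, with 50 of the more abundant genes changed at each fold size. Of changes of 1.25-fold 32.0% and of 1.5-fold 94.0% were recovered, with 8 false calls among 171. The data gave 1638 calls in that contrast, so recovery there can differ.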

Additional observations from a re-analysis of the deposited data

Results flagged for a closer look

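In 11 of the 168 sets of 4 libraries (42 genes in the 4 groups with 4 fitted libraries), 1 library stood far from the other 3 by Dixon's test, of which chance alone flags about 1 in 20. In old F-low cells, replicate 3 was low for Atp6v0b (371 CPM, the others 393 to 395) and Laptm5 (3179 CPM, the others 3355 to 3387) and high for Scarb2 (319 CPM, the others 298 to 302). In the same group replicate 2 was low for Man2b1 (882 CPM against 964 to 966) and replicate 4 high for Gaa (257 CPM against 209 to 212). In young F-low cells, replicate 1 was high for Atp6v0d1 (383 CPM against 332 to 339) and Smpd1 (44.6 CPM against 37.0 to 38.1). In young naive cells, replicate 1 was high for Cd68 (875 CPM against 658 to 691) and replicate 3 low for Asah1 (416 CPM against 452 to 455). In old naive cells, replicate 2 was high for Hexa (707 CPM against 676 to 680) and replicate 4 high for Smpd1 (37.8 CPM against 32.0 to 32.4).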

How the results depend on the processing

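Counts of called lysosomal genes are given in the order age in naive, asbestos F-high and F-low cells, asbestos in young and old, and sort in young and old mice, where the reported counts were 5, 8, 1, 12, 8, 26 and 7. All 24 libraries gave 0, 1, 0, 1, 0, 6 and 2, beside 273, 641, 174, 256, 105, 672 and 579 of 13467. Limma voom with quality weights on the 24 gave 13, 9, 2, 19, 7, 30 and 12, beside 1870, 1896, 1285, 1895, 687, 2309 and 2089 of 13467. DESeq2 gave 8, 8, 2, 14, 13, 30 and 11, beside 1342, 1259, 1251, 1010, 819, 1918 and 1776 of 13629. RLE size factors gave 5, 7, 2, 12, 8, 26 and 9, beside 1070, 983, 983, 674, 553, 1635 and 1564 of 13629. No filter gave 4, 7, 1, 10, 8, 26 and 7, beside 1103, 1006, 1057, 814, 651, 1586 and 1503 of 26022. The compared groups alone gave 2, 9, 1, 6, 10, 28 and 7, beside 685, 1274, 798, 418, 493, 1689 and 1568 of 12440 to 12715. The replicate block gave 10, 10, 2, 14, 11, 33 and 13, beside 1476, 1347, 1240, 889, 725, 2440 and 1954 of 13629. Fitted to the compared groups alone, an alternative chosen after seeing the data, the block gave 35 and 13 in the sort contrasts, beside 3513 of 12496 and 2084 of 12518. Leaving out each replicate in turn gave 2 to 8, 3 to 8, 1 to 2, 2 to 13, 2 to 8, 16 to 30 and 2 to 10. Calls kept in every such fit were 2, 2, 1, 2, 2, 14 and 2. Calls over all genes moved too in these fits. For asbestos in young mice, the fit without young asbestos F-high replicate 1 called 211 of 13986 genes. With all 24 libraries the sign turned for Atp6ap2 (-0.27) and Npc2 (-0.06) with age in asbestos F-high cells and for Atp6v0b (-0.14) and Atp6ap2 (-0.07) in the young sort contrast, and the cause was not tested. The median SE of the 42 genes was 0.16 with 24 libraries and 0.08 to 0.09 with 22 in these comparisons.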
